A study of Mus musculus with 2 samples.

Results

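A group of 10 genes of the early neural tube were followed on a pair of mouse arrays, namely the transcription factor genes Sox1, Sox2, Sox3, Sox21 and Pax6, the cytoskeletal and RNA-binding genes Nes and Msi1, the Hes genes Hes5 and Hes3, and the lipid carrier gene Fabp7. Members were all probe sets (the short probe groups that each read a transcript) annotated to exactly 1 of these symbols, 22 of the 45101 probe sets on the array and 10 of 18193 genes. The genes were chosen with the ratios of these same arrays known, in which Hes5 and Fabp7 differed, so the ratios below are descriptions and none is a test. Each RNA came from whole embryos at 8.5 days post coitum (dpc). In the embryos called matUPD18 both copies of chromosome 18 came from the mother, a maternal uniparental disomy of the whole chromosome. In those called patUPD18 both came from the father. There was 1 array per genotype, while neither the number of embryos behind each array nor the breeding that gave the disomies is stated in the labels. No member lies on chromosome 18. Without replicate arrays the variation from embryo to embryo is unknown, and the number of arrays limits how precise any value can be.

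The neural plate folds into the neural tube at this stage, and its cells form a dividing epithelium from which neurons and glia later come. SoxB1 factors (Sox1, Sox2 and Sox3) hold these cells in the progenitor state, and Sox21, of the SoxB2 group, acts as a repressor on shared target sequences. Notch signalling, through the nuclear factor RBPJ, switches on Hes genes such as Hes5, whose products repress the proneural genes that start neuron formation.

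Hes5 and Fabp7 read higher on the patUPD18 array by at least 2-fold, and the 7 other measurable genes lay within 2-fold. Measurable genes were those with a signal at or above the 60th percentile on at least 1 array (190.1 for matUPD18, 184.9 for patUPD18). Of the 10 genes, 9 passed, each read by the probe set brightest on average, and Hes3 did not. In the whole series 10484 genes were measurable, of which 1.78% passed 2-fold on the patUPD18 side and 4.48% on either side; nothing is read from that comparison, since the same contrast chose the members. The median log2 ratio (matUPD18 over patUPD18) was -0.29 over the 9 genes (0.02 with each gene at the median of its measurable probe sets, where Nes at 0.04 and Sox21 at 0.02 also lie above 0). With the brightest probe sets it was -0.0018 over the 7 without Hes5 and Fabp7, and -0.04 over all measurable genes. In each pair of values below the matUPD18 signal comes first.

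**Figure D1:**
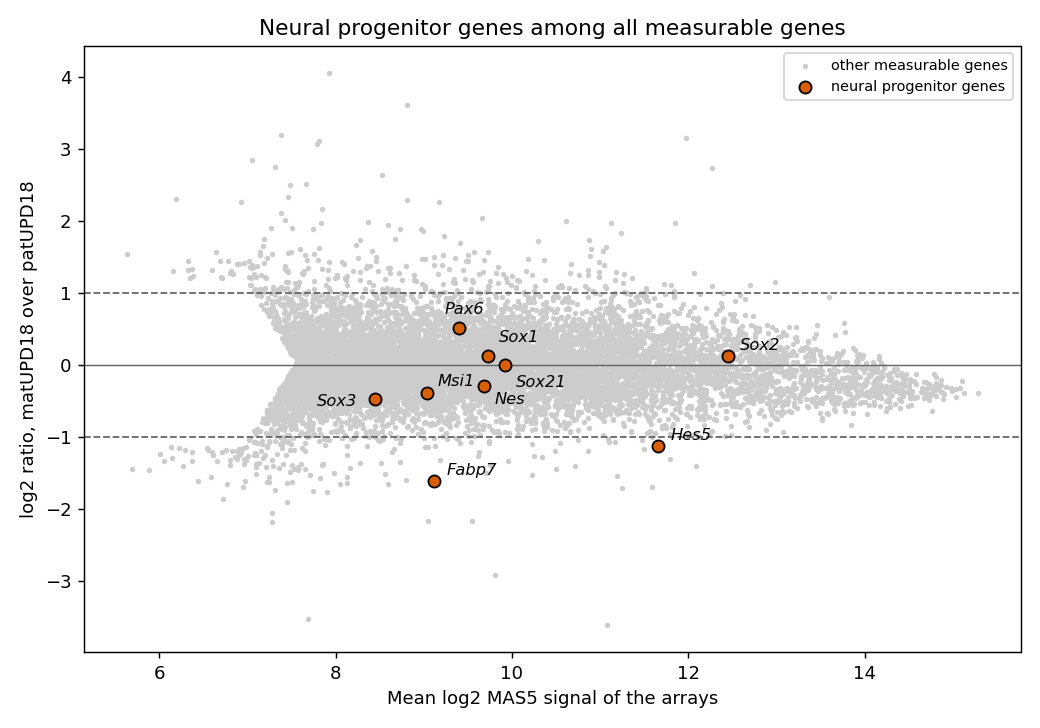
Log2 ratio of matUPD18 over patUPD18 (vertical axis) against the mean log2 MAS5 signal of the arrays (horizontal axis) for 10484 measurable genes in grey and the 9 measurable neural progenitor genes in orange; dashed lines mark 2-fold. Fabp7 (-1.61) and Hes5 (-1.12) lie below the lower line, while the other 7 lie between -0.47 (Sox3) and 0.51 (Pax6).

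Hes5 encodes a basic helix-loop-helix repressor that Notch signalling induces in neural progenitors. By its brightest probe set Hes5 had a signal of 2199 in matUPD18 and 4777 in patUPD18, a 2.17-fold difference. That probe set carries the suffix _x_at, which marks probes that may also match other transcripts. The other Hes5 probe set, without that suffix, read 645 and 1201, a 1.86-fold difference. Both probe sets were thus higher in patUPD18, with log2 ratios of -1.12 and -0.90, and the 2-fold threshold was passed only by the brighter. Among the 524 measurable genes of similar mean signal (3235 to 4840), the Hes5 ratio was the 7th largest in size, and 5 of those genes (0.954%) passed 2-fold on the same side. Since Hes5 was chosen with its ratio known, this rank and share are descriptions and nothing is read from them.

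The Hes5 promoter holds letters that RBPJ is known to bind. The motif GTGGGAA, a form of the RBPJ site, was searched on both strands in the 250 bases before each RefSeq start in build GRCm38.p6, and 1779 of 32851 such windows (5.42%) held it. The Hes5 window held it 2 times, 226 to 220 bases before the start on the opposite strand and 83 to 77 bases before the start on the gene's own strand. Only 53 windows (0.161%) held 2 or more matches. The windows of Hes5, Hes7 and Hey2 are shown because Hes7 and Hey2 are the other genes of the Hes, Hey and Notch target list below with a match (not all of that list's genes are in the promoter table), and capitals mark the match. They lie at chr4:154960673-154960922 (plus strand), chr11:69120203-69120452 (plus strand) and chr10:30842784-30843033 (minus strand), each written 5′ to 3′ on the gene's strand.
Hes5: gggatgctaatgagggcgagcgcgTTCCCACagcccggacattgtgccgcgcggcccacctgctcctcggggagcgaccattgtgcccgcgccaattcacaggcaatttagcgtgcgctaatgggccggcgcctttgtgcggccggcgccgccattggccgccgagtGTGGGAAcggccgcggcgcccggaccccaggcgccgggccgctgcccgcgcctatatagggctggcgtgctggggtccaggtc
Hes7: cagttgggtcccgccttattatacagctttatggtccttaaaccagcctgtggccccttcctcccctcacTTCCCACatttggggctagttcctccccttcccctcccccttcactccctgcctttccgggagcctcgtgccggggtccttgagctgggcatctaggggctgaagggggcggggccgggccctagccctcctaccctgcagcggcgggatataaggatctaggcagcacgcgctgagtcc
Hey2: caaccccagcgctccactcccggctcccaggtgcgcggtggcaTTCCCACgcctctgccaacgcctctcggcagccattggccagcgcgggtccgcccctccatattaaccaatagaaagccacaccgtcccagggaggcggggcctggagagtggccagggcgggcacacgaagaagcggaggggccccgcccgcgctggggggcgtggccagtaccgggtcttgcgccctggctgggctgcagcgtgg
A match is a run of letters and was not measured as a bound site. Of the genes shown with it, Hes5 and Hes7 read higher in patUPD18 and Hey2 read higher in matUPD18. Hes7 was measurable only through patUPD18 and Hey2 only through matUPD18, so nothing is read from these directions.

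Hes3, a Hes relative expressed in the early neural tube, was read by 1 probe set with signals of 59.4 and 10.5. Both lie below the 40th percentile of their arrays (84.2 and 82.5), the floor to which low signals were raised, so no fold is given.

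Fabp7 (brain lipid-binding protein), which carries long-chain fatty acids and marks radial glia, differed most among the 9 measurable genes. It read 317 in matUPD18 and 967 in patUPD18, 3.05-fold higher in patUPD18. This rests on the only Fabp7 probe set of the array, so no other probe set could be compared with it. Among 524 genes of similar mean signal (609 to 720), its ratio was the 6th largest in size, and 7 of those genes (1.34%) passed 2-fold on that side. Nothing is read from this rank and share either, for the same reason as with Hes5. The Fabp7 promoter is shown for comparison with that of Hes5, at chr10:57784673-57784922 (plus strand, GRCm38.p6). Capitals mark the short RBPJ core TGGGAA, found on the opposite strand 249 to 244 bases before the start, and CACNAG, the N-box that Hes proteins bind, found on the gene's own strand 136 to 131 bases before it.
Fabp7: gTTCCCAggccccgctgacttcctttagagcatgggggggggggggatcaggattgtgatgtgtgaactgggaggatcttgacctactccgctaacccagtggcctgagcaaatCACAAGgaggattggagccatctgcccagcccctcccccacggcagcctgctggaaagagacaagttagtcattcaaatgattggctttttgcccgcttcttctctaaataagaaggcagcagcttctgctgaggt
Both motifs are common, the core occurring in 21.6% of all windows on either strand and the N-box in 36.7%. TGGGAA lies within GTGGGAA, so the Hes5 matches count for both forms.

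The promoters of Hes5 and Fabp7 differ in base composition. The Fabp7 window held 4 CpG dinucleotides at 54.8% G and C, and the Hes5 window held 32 at 71.6%. The other members in the promoter table held 29 (Sox1), 27 (Sox2), 17 (Sox21), 15 (Nes) and 15 at each of 2 starts (Pax6), against a median of 6 and 52.4% G and C over all windows. Of the 10 genes, 7 had an entry, and Sox3, Msi1 and Hes3 had none in the table. N-boxes were also found before Sox21 and the second start of Pax6, and the Sox core ACAAAG, present on either strand in 16.5% of all windows, before Hes5, Sox2 and the second start of Pax6.

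**Figure D2:**
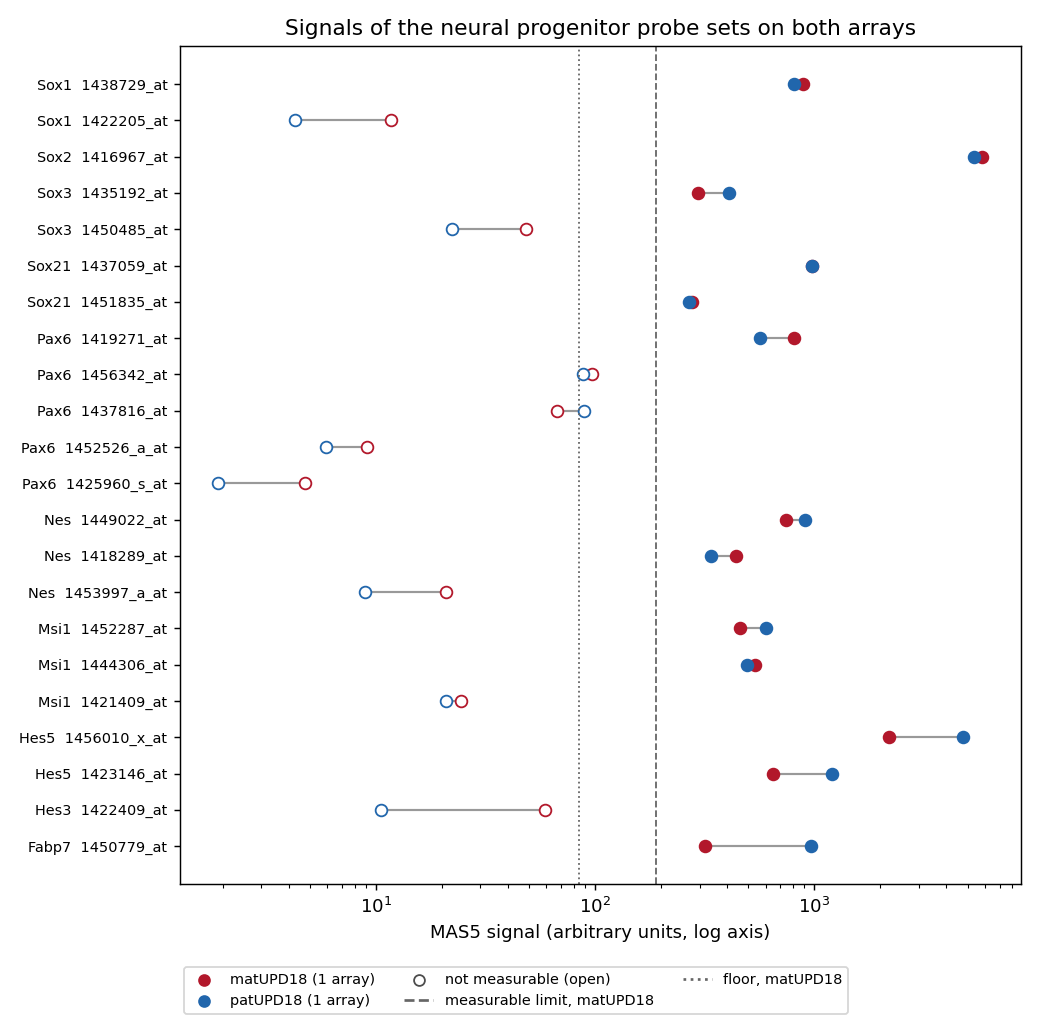
MAS5 signal (log axis) of each of the 22 probe sets of the 10 genes, red for the matUPD18 array and blue for the patUPD18 array, with open circles where the probe set was not measurable; the dashed and dotted lines are the measurable limit (190.1) and the floor (84.2) of the matUPD18 array. The blue points lie to the right of the red ones for Fabp7 and for both Hes5 probe sets, while the points of Sox1, Sox2 and Sox21 nearly coincide where filled.

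The SoxB1 genes differed little. Sox2, the SoxB1 gene shared by pluripotent and neural cells, read 5833 and 5337, 1.09-fold higher in matUPD18, by its only probe set. Sox1, which is nearly confined to neural tissue in the early embryo, read 885 and 811, also 1.09-fold higher in matUPD18. Both differences are smaller than the disagreement between probe sets of the same gene, whose log2 ratios had a pooled standard deviation of 0.44 over 4003 genes. Sox3 read 296 and 410, 1.39-fold higher in patUPD18, a log2 ratio of -0.47 and so about the size of that disagreement. Sox3 is X-linked, and Xist, which marks an inactive X chromosome, read 1568 in matUPD18 and 128 in patUPD18 by its brightest probe set; the part of X chromosome content in the Sox3 value was not tested. The dimmer probe sets of Sox1 (11.7 and 4.28) and Sox3 (48.3 and 22.2) lay under the floor on both arrays.

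Sox21 was the most even of the 9 measurable genes. Its probe sets read 973 and 974 by the brighter and 276 and 268 by the dimmer, with log2 ratios of -0.0018 and 0.04. The SoxB genes as a group therefore held no member past 2-fold in either direction.

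Pax6, a paired-box factor of forebrain, eye and spinal cord progenitors, was the furthest in the matUPD18 direction. Its 1 measurable probe set read 806 and 565, 1.43-fold higher in matUPD18. The 4 other Pax6 probe sets were below the measurable limit, with signals from 1.91 to 96.5, and give no ratio that can be set beside it.

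Nes and Msi1 were split by their probe sets. Nes encodes nestin, an intermediate filament protein of neural progenitors. Its brightest probe set read 743 and 910, 1.23-fold higher in patUPD18, and the other measurable probe set read 439 and 337, 1.30-fold higher in matUPD18. Msi1 encodes musashi, an RNA-binding protein that sustains Notch signalling by holding back translation of the inhibitor Numb. It read 459 and 600 by its brightest probe set, 1.31-fold higher in patUPD18, and 534 and 495 by the other, 1.08-fold higher in matUPD18. No direction can be given for either gene. On the deposited scale the 13 measurable probe sets of the 10 genes divided almost evenly, 6 toward matUPD18 and 7 toward patUPD18. Of the 4 genes with more than 1 measurable probe set, Hes5 was the only 1 whose probe sets shared a direction on that scale. Both Sox21 ratios lay next to 0 (-0.0018 and 0.04), so their difference in sign has little meaning.

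The direction of a small ratio rested on how the arrays were put on a common scale. Median centring, quantile and loess scaling left each of the 9 genes on its side of 0 and of 2-fold. Scaling to the 11 bacterial and phage hybridisation control probe sets, which read lower in matUPD18 (median log2 ratio -0.50), moved the median of all measurable genes from -0.04 to 0.46. On that scale Fabp7 (-1.11) was still 2-fold higher in patUPD18, Hes5 (-0.62) was higher in patUPD18 within 2-fold, and Pax6 (1.01) passed 2-fold in matUPD18. Sox3 (0.03), Sox21 (0.50), Nes (0.21) and Msi1 (0.61, by its other probe set, which then had the higher mean) turned to the matUPD18 side.

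**Figure D3:**
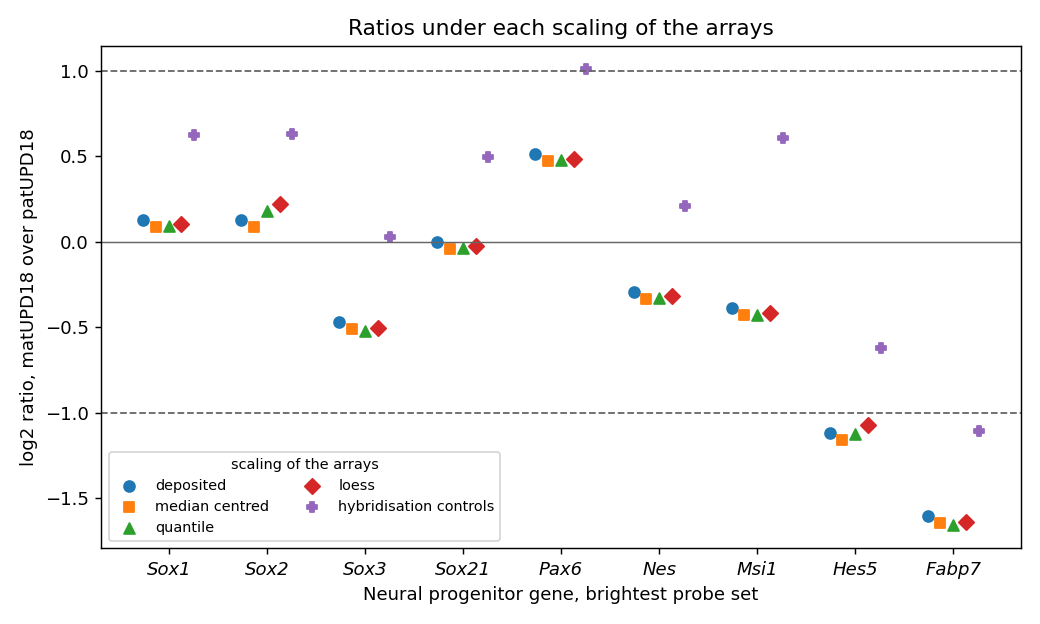
Log2 ratio of matUPD18 over patUPD18 for the brightest probe set of each measurable neural progenitor gene under 5 scalings of the arrays; dashed lines mark 2-fold. The 4 scalings that centre the bulk of signals nearly coincide, and scaling to the hybridisation controls lifts each point, to -0.62 for Hes5 and -1.11 for Fabp7.

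The direction of the Notch pathway around Hes5 rested on the scale. Outside the 10 genes, 42 of 49 listed Notch pathway genes were measurable. On the deposited scale 19 lay on the matUPD18 side and 23 on the patUPD18 side, with a median log2 ratio of -0.07. Of these 1 (Hes7) passed 2-fold on the patUPD18 side, 0 did on the matUPD18 side, and 41 were less than 2-fold apart. Of the 42 genes, Psen2 and Hey2 were measurable only through matUPD18, and Notch4, Ncstn and Hes7 only through patUPD18. The limit thus partly set the direction of these genes in the counts. With control scaling 36 lay on the matUPD18 side and 6 on the patUPD18 side, with a median of 0.43. Hes7 (-0.93) was then within 2-fold, and 6 genes passed it on the matUPD18 side, namely Dll1 (1.496), Jag1 (1.49), Hes1 (1.45), Ep300 (1.37), Notch2 (1.34) and Hey2 (1.31). On that scale 1353 of all 10484 measurable genes passed 2-fold on the matUPD18 side, and the median of all measurable genes was 0.46. The Notch counts with control scaling therefore follow the shift of the whole array.

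Among the ligands, Dll1, which presents the signal from newly forming neurons and in presomitic mesoderm, read 940 and 471, 1.99-fold higher in matUPD18. Jag1 read 617 and 311, 1.98-fold higher in matUPD18. Jag2 went the other way, with 224 and 404, 1.80-fold higher in patUPD18. Dll3 (617 and 574) and the non-canonical ligand Dlk1 (310 and 390) were within 1.26-fold, and Dlk1 turned to the matUPD18 side with control scaling. On the deposited scale no ligand passed 2-fold, and those nearest to it, Dll1 and Jag1, lay on the side opposite to Hes5.

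Among the receptors, Notch2 read 1758 and 979, 1.80-fold higher in matUPD18, and Notch3 read 1758 and 1385, 1.27-fold higher in matUPD18. Notch1 was split, with 793 and 1121 by its brightest probe set (log2 ratio -0.50) and a log2 ratio of 0.81 by the other measurable probe set. Notch4, chiefly an endothelial receptor, read 183 and 189, was measurable only through patUPD18 and close to the limit, and turned sign with control scaling. The nuclear effector Rbpj read 2354 and 2536, a log2 ratio of -0.11 that control scaling turned to 0.39, and its 2 other measurable probe sets had -0.70 and 0.08. The 23 measurable modulators and nuclear partners all lay within 2-fold on the deposited scale, from -0.87 (Psenen, a subunit of the gamma-secretase that releases the Notch intracellular domain) to 0.87 (the coactivator Ep300). Control scaling turned 12 of the 23 to the matUPD18 side.

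On the deposited scale the Hes and Hey genes differed in direction from gene to gene. Hes1, the Hes gene that overlaps Hes5 in neural progenitors, read 401 and 208, 1.93-fold higher in matUPD18, opposite to Hes5. Hes7, which oscillates in presomitic mesoderm, read 115 and 310, 2.70-fold higher in patUPD18, and was measurable only through that array. Nrarp, a Notch-induced feedback inhibitor, read 1116 and 1910, 1.71-fold higher in patUPD18, and its dimmer probe set gave a log2 ratio of -0.36.

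Hes6, which opposes Hes1 and favours neuron formation, read 1154 and 1610, 1.39-fold higher in patUPD18. Hey1 (798 and 947) and Heyl (224 and 301) were 1.19-fold and 1.35-fold higher in patUPD18. With control scaling Hes6, Hey1 and Heyl turned to the matUPD18 side. Hey2, an endothelial and cardiac effector, read 208 and 119, 1.75-fold higher in matUPD18, and was measurable only through that array. The Groucho corepressors, through which Hes proteins act, were near even, with log2 ratios of 0.02 (Tle1, below 0 after median centring or quantile scaling), 0.12 (Tle3) and 0.23 (Tle4), and the other measurable probe sets of Tle1 and Tle4 had -0.52 and -0.74.

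**Figure D4:**
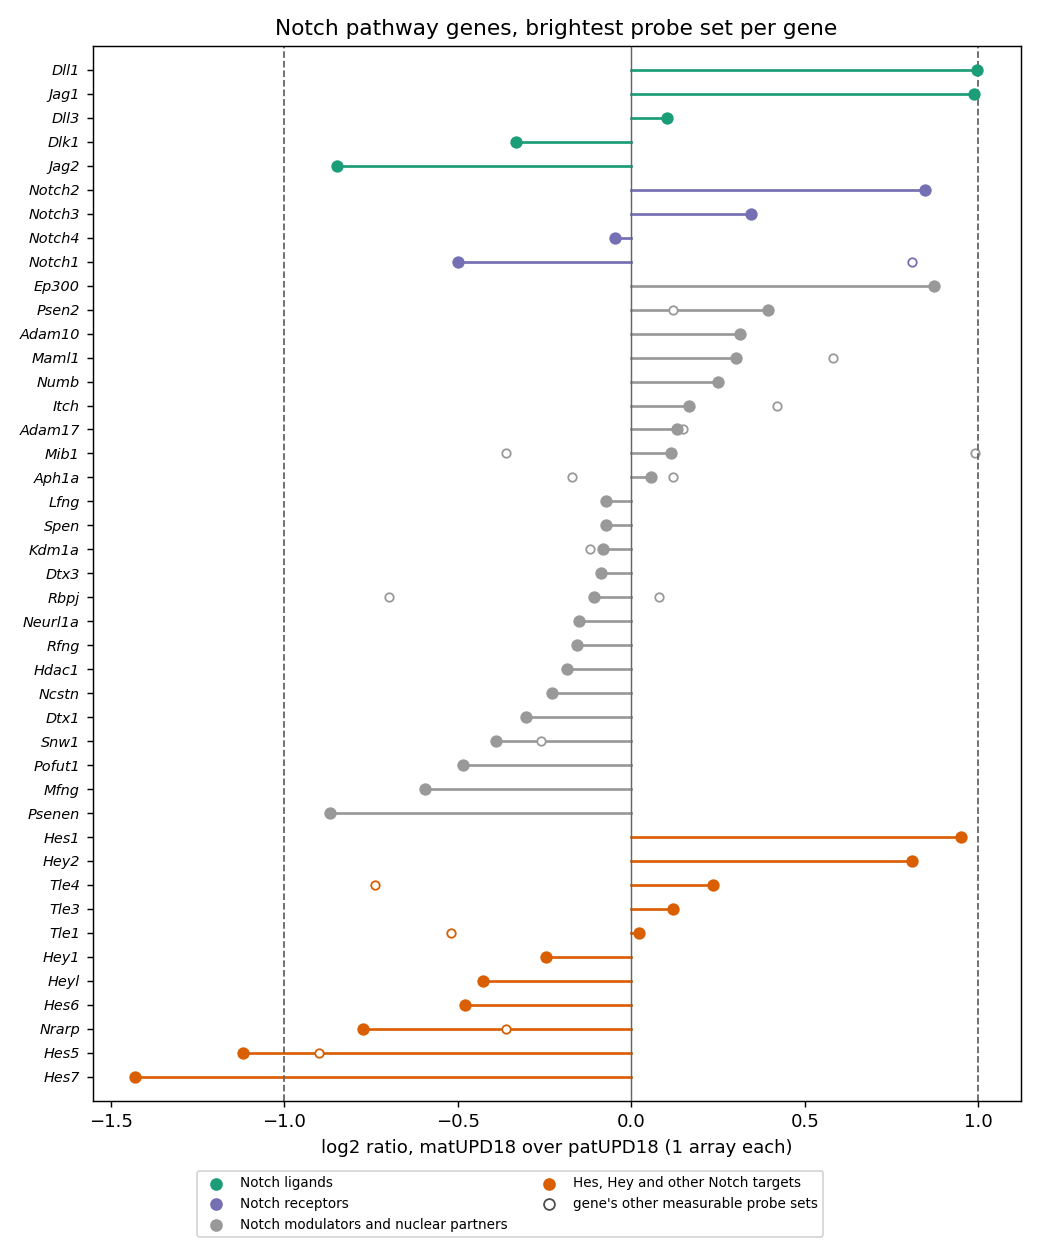
Log2 ratio of matUPD18 over patUPD18 for each measurable Notch pathway gene (filled points, brightest probe set; open points, its other measurable probe sets), coloured by role, with dashed lines at 2-fold. Hes5 (-1.12) and Hes7 (-1.43) lie past 2-fold on the patUPD18 side, while Dll1, Jag1 (0.99) and Hes1 (0.95) lie at the other end; control scaling turned Dlk1, Notch4, Hes6, Hey1, Heyl and 12 of the 23 modulators, Rbpj among them.

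The fatty acid and retinoid binding proteins related to Fabp7 were mostly not measurable. Of 14 on the array, 4 were measurable. Fabp5 read 23304 and 29317, 1.26-fold higher in patUPD18, but turned after quantile and control scaling. Crabp2, a retinoic acid carrier, read 1898 and 2904, 1.53-fold higher in patUPD18. Crabp1 read 1790 and 2015, 1.13-fold higher in patUPD18, and turned with control scaling. Fabp7 was the only 1 past 2-fold.

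Other neural genes are given by list. Of 17 radial glia and neuroepithelium genes on the array, 16 were measurable and all lay within 2-fold, with a median of 0.06. Of 25 early neural plate genes, 18 were measurable and all lay within 2-fold, with a median of 0.17. With control scaling 2 radial glia genes (Ptprz1 at 1.45 and Tnc at 1.29) passed 2-fold on the matUPD18 side. So did 3 early neural plate genes (Pax3 at 1.11, Otx2 at 1.06 and Gbx2 at 1.02). On that scale 1353 of all 10484 measurable genes passed on that side. Tnc and Gbx2 were measurable only through matUPD18. Of 25 proneural and young neuron genes on the array, 12 were measurable. Of these 6 were so on both arrays, 5 only through patUPD18 (Neurog1, Neurod1, Dcx, Nhlh1 and Rbfox3) and 1 only through matUPD18 (Stmn2), so the limit itself fixes much of their direction. On the deposited scale the 6 measurable on both arrays were all higher in patUPD18. With control scaling the 12 measurable genes were split, 6 on each side. The 13 that were not measurable were also split, 7 with the higher signal in matUPD18 and 6 in patUPD18. As the direction rested on the scale and the limit, none is given for the list. Insm1, a zinc-finger factor of newborn neurons, read 468 and 956, 2.04-fold higher in patUPD18, and its dimmer probe set gave a log2 ratio of -1.47; with control scaling Insm1 (-0.53) was within 2-fold. Stmn2, a neuronal microtubule regulator, went the other way, with 240 and 83.1, 2.89-fold higher in matUPD18. Its patUPD18 signal lay next to the floor of that array (82.5), so the size of this fold is uncertain. Of the 10 measurable Sox genes outside the members none passed 2-fold, with a median of -0.12. Sox11, a SoxC gene of differentiating neurons, came nearest with 3900 and 7723, 1.98-fold higher in patUPD18, and passed 2-fold with median centring (-1.03), while its 5 other measurable probe sets were split, with log2 ratios of -1.08, -0.40, -0.11, -0.10 and 2.07. With control scaling Sox4 (1.29) and Sox18 (1.23, measurable only through matUPD18) passed on the matUPD18 side. On the deposited scale the brightest Sox4 probe set had a log2 ratio of 0.80, and its 2 other measurable probe sets 0.18 and 0.14. Sox9 was measurable only through patUPD18. These Sox genes were singled out after their values were seen.

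**Figure D5:**
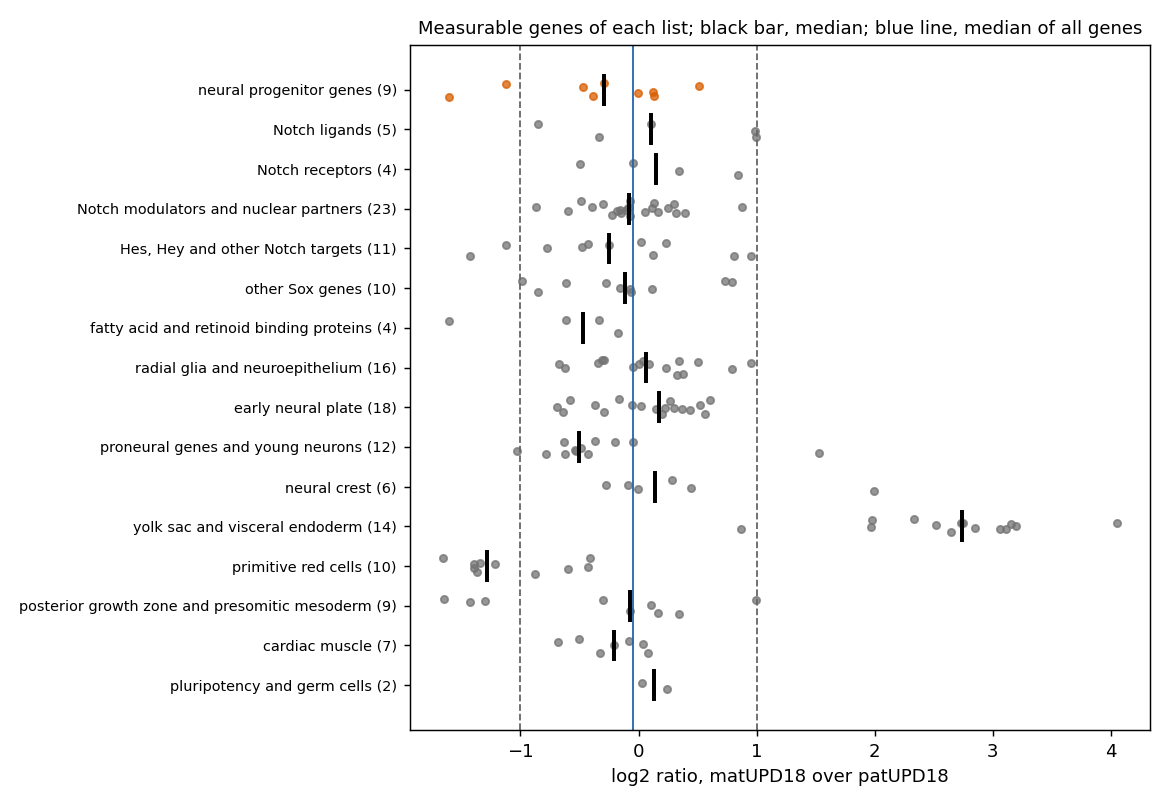
Log2 ratio of matUPD18 over patUPD18 for the measurable genes of each list (number in brackets), with the list median as a black bar, the median of all measurable genes (-0.04) as a blue line and dashed lines at 2-fold; points are spread vertically for legibility. The medians of the radial glia (0.06) and early neural plate (0.17) lists lie near the blue line and those of the yolk sac (2.74) and primitive red cell (-1.28) lists at the ends; control scaling lifts these 4 medians by about 0.50.

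Yolk sac and red cell markers differed between the arrays. The 14 measurable of 15 listed yolk sac and visceral endoderm markers were all higher in matUPD18, 13 by at least 2-fold and 10 measurable only through that array, with a summed signal of 36556 in matUPD18 and 5370 in patUPD18. The 10 measurable of 11 primitive red cell markers were all higher in patUPD18, 6 by at least 2-fold, with summed signals of 46468 and 71554. Of these, Gata1 and Epor were measurable only through patUPD18. With control scaling 8 of the 10 were higher in patUPD18, 1 by at least 2-fold. These markers were chosen with their ratios on these arrays known, so their counts are descriptions. Of all measurable genes on the deposited scale, 2.7% passed 2-fold on the matUPD18 side and 1.78% on the patUPD18 side. In patUPD18, 7 of the 14 yolk sac markers lay under the floor of that array, and no red cell marker was under the floor on either. Of the 9 measurable posterior growth zone and presomitic mesoderm genes, 3 passed 2-fold on the patUPD18 side, namely Cdx2 (218 and 681), Hes7 and Msgn1 (66.8 and 208). Hes7 and Msgn1 were measurable only through patUPD18. With control scaling Hes7 (-0.93) and Msgn1 (-0.80) were within 2-fold, Cdx2 (-1.15) was still past it, and Dll1 (1.496) passed it on the matUPD18 side. Neural crest markers had 6 measurable genes with a median of 0.14, and the Ets1 factor alone passed 2-fold, with 3124 and 783. The 2 other measurable Ets1 probe sets had log2 ratios of 2.43 and 0.31, the latter within 2-fold. Cardiac muscle had 7 measurable genes with none past 2-fold and a median of -0.20, and pluripotency and germ cell genes had 2 measurable, both within 2-fold. The part of tissue content in the Hes5 and Fabp7 values was not tested, and in RNA from whole embryos fewer cells of a type and less RNA per cell cannot be told apart.

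Impact, the paternally expressed imprinted gene of chromosome 18, read 328 in matUPD18 and 2466 in patUPD18 by its brightest probe set, the direction its imprint gives for the labels. The other measurable Impact probe set read 268 and 205, in the opposite direction.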

How the data were processed

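The deposited values are MAS5 signal intensities on a linear scale, 1 per probe set and array, which the authors made with MAS5 and GCOS according to the submitters' processing notes, with no version stated there. The labels' protocols describe RiboAmp amplification and biotin labelling of total RNA for an Affymetrix mouse array (430 in the titles). The 2% trimmed means were 500.003 and 500.004, which places both arrays on 1 target level and hides any change common to the bulk of transcripts.

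Probe sets with exactly 1 symbol (34958) were used, with symbols updated by Entrez identifier to RefSeq (GRCm38.p6; 34754 matched). The brightest probe set on average stood for its gene. The 40th percentile of each array served as a floor for low signals, and log2 ratios were taken after that. With 1 array per group no p-value was computed.

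The members and gene lists were chosen with earlier results of these data known. Named genes were the members, Impact and Xist, the measurable Notch ligands, receptors and targets, and, in each list, the genes past 2-fold; the yolk sac and red cell genes past 2-fold are given as counts. Rbpj, Psenen, Ep300, Isl1, the other Fabp and Crabp genes, the genes past 2-fold only with control scaling or measurable only through 1 array, and the promoter motifs were chosen after their values were seen. Alternatives were other scalings, floors, measurable limits, probe set rules and fold thresholds, and those for the Notch and neural lists were added after seeing the data. RefSeq promoters matched 7 of 10 members by symbol. The procedure was run on simulated data with planted changes, which checks the calculation and says nothing of the variation between embryos. Tables were handled in pandas 2.3.3 under Python 3.11.15, loess came from statsmodels 0.14.6, and figures were drawn with matplotlib 3.10.9.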

Additional observations from a re-analysis of the deposited data

How the results depend on the processing

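No paired analysis was possible because there was 1 array per group, and for the same reason no replicate could be left out. The members held 9 measurable genes, but 8 with the limit at the 75th percentile and 10 with no limit. Of these, Hes5 and Fabp7 were the 2 past 2-fold under median centring, quantile and loess scaling, no floor and the higher floor. The same 2 passed with each measurable limit and with the median over a gene's probe sets, where Hes5 (-1.01) lay at the threshold. The number was 1 (Fabp7) without _x_at and _s_at probe sets, where Hes5 was read by its 1.86-fold probe set, and 1 (Fabp7) at 3-fold. With scaling to the hybridisation controls it was again 2, but Fabp7 and Pax6, and the median over the measurable members was 0.50 in place of -0.29; it was 0.02 with the median over a gene's probe sets. Of all measurable genes, 470 were at least 2-fold apart; the number was 1390 with control scaling (1353 higher in matUPD18 and 37 in patUPD18, against 283 and 187), 267 with the floor at the 60th percentile, 249 with the limit at the 75th percentile, 1961 at 1.5-fold and 76 at 3-fold. The Notch and neural lists outside the members held 3 genes past 2-fold (Hes7, Insm1 and Stmn2), and 12 with control scaling, 1 with the higher floor, 1 with the limit at the 75th percentile, 23 at 1.5-fold and 0 at 3-fold. Low signal limits the values of Hes3 and of the dim Pax6, Nes, Msi1, Sox1 and Sox3 probe sets.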
